A study of Equus caballus with 18 samples.

Results

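The comparison described here sets synovial fluid taken 24 h after an injection of corticosteroid into a joint against fluid from the same horses at baseline, before the injection. It covers every probe set of the equine array whose annotation gives exactly 1 gene symbol, which is 16789 of 30559 probe sets. These stand for 16661 genes, and a gene with several probe sets is represented by the one with the highest mean. The 24 h group holds 6 arrays and the baseline group 6 arrays, paired by horse, out of 18 array columns in the series. The animals were adult Thoroughbreds in exercise, aged 4 to 8 years over the whole study, and the 6 horses described here are numbered 1 to 6. At 24 h each horse had received 8 mg of isoflupredone acetate, a synthetic glucocorticoid, in the right antebrachiocarpal joint, the upper joint of the carpus. At baseline the same joint had received nothing in this study. No horse of either group had been given corticosteroid or another joint medication for a long period before the study. RNA was prepared from whole synovial fluid lysed directly, with no sorting of cells, so an array reads all cells and free RNA in the fluid. Arrays of joints given saline were not analysed here, so the drug, the needle, the first sampling and the elapsed time cannot be told apart.

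Synovial fluid is a filtrate of plasma enriched by the lining cells of the joint, and the free cells in it are mainly macrophages, other mononuclear cells and some neutrophils. Glucocorticoids cross the cell membrane and bind a receptor that moves to the nucleus, where it raises the transcription of some genes and restrains inflammatory genes driven by NF-kB and AP-1. In macrophages they are known to favour a programme of scavenging and uptake of dying cells, with the haemoglobin receptor CD163 and the receptor kinase MERTK as standard markers. The roles of genes given below are those known from human and mouse work.

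The levels are log2 expression values as deposited, so a difference of 1 is a 2-fold difference, and an array has no true zero. The 12 arrays had medians of 3.78 to 4.04 at 24 h and 3.91 to 4.01 at baseline. The SD of the values within an array was 1.56 ± 0.12 at 24 h and 1.37 ± 0.0931 at baseline (SD, n = 6 each), larger at 24 h in 5 of 6 horses (two-sided exact sign-flip permutation test, p = 0.0625, where 0.0312 is the smallest that 6 horses allow). Several arrays stood away from their own group. Over the 1000 probe sets that vary most among the 12 arrays, the 24 h array of horse 2 lay at a mean distance of 0.51 from the day 7 arrays of other horses. Its distance was 1.37 from the other 24 h arrays and 1.83 from the other baseline arrays. The baseline array of horse 4 lay nearer to the 24 h arrays of the other horses, at 1.05, than to their baseline arrays, at 1.48. The 24 h arrays of horse 1 and horse 3 lay nearer to the other baseline arrays (1.20 and 1.53) than to the other 24 h arrays (1.57 and 1.64). The baseline array of horse 4 was also nearer to day 7, at 1.23, than to baseline, and the 24 h array of horse 6 was nearer to day 7, at 0.91, than to the other 24 h arrays, at 1.05. Horses 1 and 2 shared 99.3% of their day 7 values exactly, and both columns were averaged into 1 array. The labels were kept as given, and whether any were exchanged was not tested. The values of each horse, horses 1 to 4 above all, hold only as far as the labels do. The calls below are given for all arrays, and those that held without the 24 h array of horse 2 are named after the totals.

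**Figure D1:**
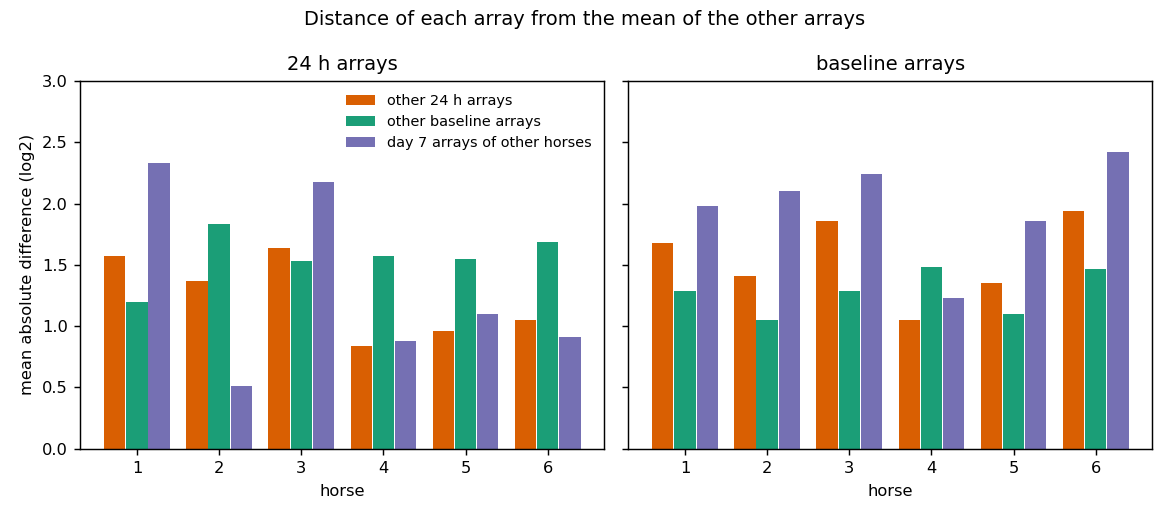
Mean absolute difference, in log2 units over the 1000 most variable probe sets, between each 24 h array (left panel) or baseline array (right panel) and the mean of the other horses' arrays at 24 h, at baseline and at day 7. The 24 h array of horse 2 is nearest to day 7 at 0.51, and the baseline array of horse 4 is nearer to 24 h at 1.05 than to baseline at 1.48.

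The test was limma's moderated test of the within-horse change, with Benjamini-Hochberg adjustment over all probe sets and a threshold of 0.05 for a call. Day 7 arrays took part in the fit only through the estimate of the spread and of the horse terms. Of 30559 probe sets, 310 were called, which is 1.01%. Among these 310, 166 were higher and 144 lower, and 168 of them have no single symbol. Of the 16661 genes, 120 rose (0.72%) and 21 fell (0.126%). The genes that rose had a median log2 change of 1.55, and 27 of them reached 4-fold. Those that fell had a median of -1.02, and the change over all genes had a median of 0.01. Without a test, 637 genes (3.82%) were at least 2-fold higher at 24 h and 45 (0.27%) at least 2-fold lower. The genes higher in all 6 horses numbered 699 (4.2%), and those lower in all 6 numbered 661 (3.97%). For 77 genes (0.462%) every 24 h array lay above every baseline array, and for 80 genes (0.48%) every 24 h array lay below every baseline array. In a bulk sample, fewer cells of a type and less RNA per cell cannot be told apart, and this holds for every change below.

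The number of calls changed with most arrays left out. Leaving out 1 of the 12 arrays lowered the 310 probe sets by over 1.5-fold for 8 arrays and raised them by as much for 1. Dropping the 24 h array of horse 2, 4, 5 or 6 gave 54, 90, 46 and 17 probe sets. Dropping the baseline array of horse 2, 3, 5 or 6 gave 47, 54, 62 and 33, and dropping that of horse 1 gave 1257. Without the 24 h array of horse 2 the fit called 54 probe sets (0.177%), and 31 of the 120 rises and 0 of the 21 falls kept their call, although 21 of these falls had an unadjusted p under 0.05 in limma. The 31 rises still called then were ALDH1L1, CD163, CTSB, CXCL8, DCAF11, DDIT4, DPYD, ERGIC1, ETS2, FKBP5, GPNMB, GRINA, GTPBP2, HMOX1, IL4R, LGALS3, LGMN, MERTK, MMP1, NCOA4, PFKFB3, POR, PTK2B, RHBDD2, RNF19B, SAMSN1, SIRPA, TBC1D9, TREM1, TRIB1 and WDR7. Any other gene given below as called with all arrays lost its call in that fit. Every one of these 141 changes kept its sign without that array, and 140 of them moved by under 1.5-fold. Without the baseline array of horse 4, 93 rises and 14 falls kept their call, and without both arrays 23 rises and 1 fall did. A fit on the 12 arrays of 24 h and baseline alone, which estimates the spread from fewer arrays, called 2 probe sets, 1 of them in a named gene, CD163. In that fit 5020 probe sets had an unadjusted p under 0.05, against 6067 in the fit with day 7, and all 141 called genes were among them. The 141 genes were chosen by their p on the same arrays. Neither this count nor the unadjusted p of the 21 falls above is therefore separate support. With the SD of each array as a covariate CD163 alone was called.

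**Figure D2:**
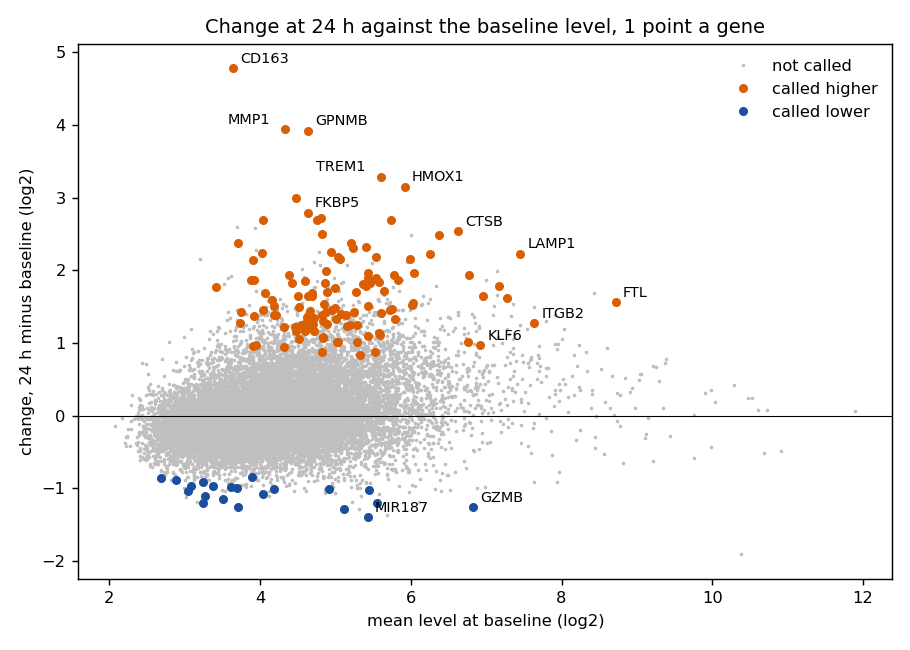
Log2 change at 24 h against baseline (vertical axis) plotted over the mean baseline level in log2 units (horizontal axis), 1 point for each of 16661 genes. The 120 rises (orange) reach 4.78 for CD163 and the 21 falls (blue) reach -1.40 for MIR187, and rises lie at higher levels than falls.

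CD163 was the largest of the 120 rises and the 1 gene called in every setting tried. The lowest, median and highest CD163 levels were 6.68, 8.47 and 9.78 at 24 h, against 3.15, 3.59 and 4.18 at baseline. The times did not overlap, and the 24 h array of horse 1 was the lowest of its group. CD163 rose 27.4-fold (log2 change 4.78 ± 0.37, SE, adjusted p = 0.000132), by 3.53 in horse 1 at the least and 6.47 in horse 6 at the most. The alternative settings numbered 33, and without the 24 h array of horse 2 its change was 4.91.

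Known glucocorticoid targets had the highest median of the 33 lists of gene roles. Of 31 measured members of 40 listed, 5 rose, 0 fell and 17 were at least 2-fold higher, and the list's median change was 1.08 beside 0.01 over all genes. For each list count here and below, the shares over all genes are 0.72% called higher and 0.126% called lower. In limma an unadjusted p under 0.05 was found for 2738 of all 16661 genes. With the 24 h array of horse 2 left out, the median was 0.89 with 6 members called. By horse the median of the list was 0.77, 0.46, 1.29, 1.16, 0.95 and 1.75 in horses 1 to 6. FKBP5, a co-chaperone that restrains the glucocorticoid receptor itself, had levels of 5.90, 7.79 and 8.42 at 24 h, against 4.01, 4.62 and 5.31 at baseline (lowest, median and highest, here and below). No 24 h array overlapped a baseline array, and horses 2 and 1 were the lowest at 24 h. FKBP5 rose 6.89-fold (log2 change 2.79 ± 0.35, SE, adjusted p = 0.0081), and by 3.01 without the 24 h array of horse 2. DDIT4, which restrains the growth kinase mTOR, had levels of 5.94, 7.30 and 8.84 at 24 h, against 3.95, 4.90 and 5.45 at baseline. Its groups did not overlap, and the change was largest in horse 4 at 4.19 and smallest in horse 1 at 1.03 (fitted 2.50 ± 0.39, SE, adjusted p = 0.0196). PER1, a clock repressor with glucocorticoid response elements, had levels of 5.35, 6.89 and 8.41 at 24 h, against 4.54, 4.88 and 5.22 at baseline. The groups were apart by a small margin, since horses 1 and 2 changed by only 0.65 and 0.81, and the fitted change was 1.99 ± 0.37 (SE, adjusted p = 0.0322). With the 24 h array of horse 2 left out it missed the threshold (adjusted p = 0.0515).

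CD163 and MERTK, which is described with the receptors, were the other called members, and the rest did not pass. DUSP1, a phosphatase that switches off MAP kinases, changed by 2.10 ± 0.51 (SE) and was higher in 6 of 6 horses, with 0.32 in horse 2 and 4.35 in horse 6 (adjusted p = 0.0612). GLUL, the glutamine synthetase, averaged 9.14 at 24 h and 7.15 at baseline. VSIG4, a complement receptor of resident macrophages, had a change of 1.64 (adjusted p = 0.0544) and ranged over horses from 0.22 to 3.82. SGK1 (change 0.28), KLF15 (0.05) and PDK4 (-0.12), which are classical targets in other tissues, lay near 0, and TFCP2L1 was lower in 6 of 6 horses at -0.66. GLUL, SGK1, KLF15, PDK4 and TFCP2L1 were named after their values were seen.

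**Figure D3:**
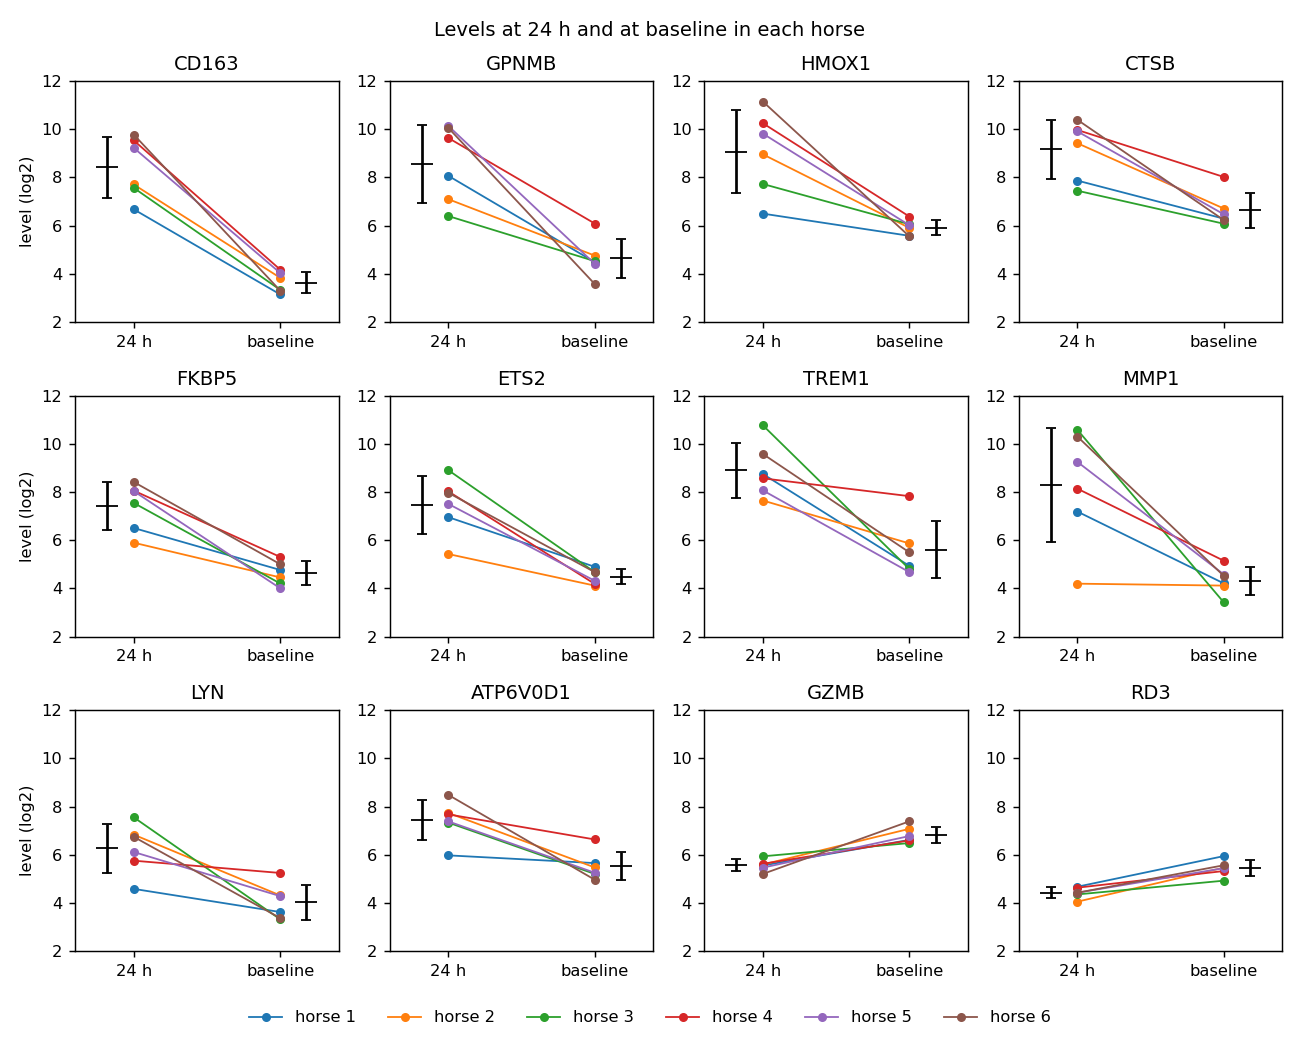
Log2 level of 12 genes in each horse at 24 h and at baseline (1 coloured line a horse), with the mean and SD of the 6 arrays in black beside each time. CD163 runs from 6.68 to 9.78 at 24 h and from 3.15 to 4.18 at baseline, and MMP1 is flat in horse 2 at 4.20 and 4.12.

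Some genes that handle haem and iron rose, CD163 among them. Of 33 measured members of that list, 6 rose and 0 fell (CD163, HMOX1, BLVRA, NCOA4, FTL and ACO1), 11 were at least 2-fold higher, and the median change was 0.46. HMOX1, the enzyme that opens the haem ring, had levels of 6.50, 9.39 and 11.15 at 24 h, against 5.56, 5.96 and 6.38 at baseline. All 24 h arrays lay above all baseline arrays, but horse 1 barely cleared them, with a change of 0.92 beside 5.59 in horse 6. HMOX1 rose 8.88-fold (log2 change 3.15 ± 0.45, SE, adjusted p = 0.0121). BLVRA, the biliverdin reductase that takes the next step, had levels of 5.03, 6.14 and 6.88 at 24 h, against 3.15, 3.99 and 4.72 at baseline, again without overlap. It rose by 2.14 ± 0.35 (SE, adjusted p = 0.0221), and horse 1 changed by 0.31. FTL, the light chain of ferritin, was among the highest levels of the called genes, at 9.58, 10.43 and 11.01 at 24 h, against 7.90, 8.62 and 9.52 at baseline. FTL rose by 1.56 ± 0.32 (SE, adjusted p = 0.0426), and a second probe set of the gene gave 2.52 (adjusted p = 0.0221). NCOA4, which carries ferritin to the lysosome, rose by 1.59 ± 0.24 (SE), with levels of 4.74, 6.05 and 6.23 at 24 h, against 3.57, 4.09 and 4.95 at baseline. ACO1, the cytosolic aconitase that doubles as an iron sensor, rose by 1.50 ± 0.30 (SE, adjusted p = 0.0424). With the 24 h array of horse 2 left out, the called members were 3, and FTL (adjusted p = 0.118), BLVRA (0.0605) and ACO1 (0.11) missed the threshold. SLC40A1, the iron exporter ferroportin, had a change of -0.02 (named after its value was seen). The 6 measured red cell markers had a mean level of 3.15 to 3.85 at 24 h and 3.30 to 3.91 at baseline.

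Receptors of the macrophage surface were the next group. Scavenger and lectin receptors had 3 of 34 members called, all higher (CD163, GPNMB and TREM1), 12 at least 2-fold higher and a median change of 0.38. GPNMB, a glycoprotein of lysosome-rich and lipid-laden macrophages, had levels of 6.40, 8.86 and 10.14 at 24 h, against 3.58, 4.51 and 6.09 at baseline. The groups did not overlap, but horse 3 changed by 1.87 and horse 6 by 6.48. GPNMB rose 15.2-fold (log2 change 3.92 ± 0.50, SE, adjusted p = 0.00812). MERTK, which binds dying cells through bridging proteins, had levels of 4.57, 6.53 and 7.17 at 24 h, against 3.10, 3.79 and 4.09 at baseline. It rose by 2.38 ± 0.36 (SE, adjusted p = 0.0153) without overlap, and the smallest changes were 0.48 in horse 1 and 1.00 in horse 3. TREM1, an activating receptor of neutrophils and monocytes, had levels of 7.65, 8.66 and 10.77 at 24 h, against 4.68, 5.22 and 7.83 at baseline. The groups met, because the baseline array of horse 4 was high at 7.83 and its change was 0.74. TREM1 rose by 3.29 ± 0.56 (SE, adjusted p = 0.0247), most in horse 3 at 5.96.

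Other receptors rose too. SIRPA, which receives the CD47 signal that restrains phagocytosis, had levels of 6.93, 8.36 and 8.86 at 24 h, against 4.94, 5.89 and 7.38 at baseline, and only the high baseline array of horse 4 overlapped the 24 h group. SIRPA rose by 2.15 ± 0.29 (SE, adjusted p = 0.00934) and kept its call in 28 of 33 settings. IL4R, the receptor chain for interleukins 4 and 13, rose by 1.83 ± 0.28 (SE, adjusted p = 0.0177), with levels of 6.41, 7.28 and 8.20 at 24 h, against 4.71, 5.40 and 6.51 at baseline. It was the 1 called gene of 38 measured in the JAK, STAT and SOCS list, where 12 were at least 2-fold higher. HCAR2, the niacin receptor, rose by 2.69 ± 0.56 (SE, adjusted p = 0.0431), unevenly, with 5.44 in horse 3 and 0.80 in horse 5. VDR, the vitamin D receptor, rose by 1.85 ± 0.37 (SE, adjusted p = 0.0397), was higher in 5 of 6 horses and changed by -0.42 in horse 3. ITGB2, the common chain of the leukocyte integrins, rose by 1.27 ± 0.24 (SE, adjusted p = 0.0339) and was the 1 called member of 42 in the adhesion list. ILT11A, named for the immunoglobulin-like transcript family, rose by 1.87 ± 0.33 (SE), and the amino acid carrier SLC15A4 of endolysosomes by 1.33 ± 0.28. Among these, SIRPA and IL4R stayed called when the 24 h array of horse 2 was left out (adjusted p = 0.0297 and 0.0478), while HCAR2, VDR, ITGB2, ILT11A and SLC15A4 did not.

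Not all macrophage genes moved with these receptors. Of 14 measured markers of macrophages or monocytes, 2 rose (CD163 and MERTK), 0 fell, 7 were at least 2-fold higher and the median change was 0.74. CD68, a lysosomal marker, averaged 9.30 at 24 h and 7.92 at baseline and was higher in 6 of 6 horses, but did not pass (adjusted p = 0.0637). The complement genes C1QA, C1QB and C1QC gave changes of 0.07, -0.03 and 0.07, the lysozyme gene LYZ 0.08 and CSF1R, the receptor for macrophage growth factor, 0.39. C1QB averaged 9.12 at 24 h and 9.15 at baseline. None of these 5 genes passed the test, and they and CD68 were named after their values were seen. The mean of the 14 markers was 5.28, 6.90 and 7.88 at 24 h and 5.08, 5.43 and 6.14 at baseline (lowest, median and highest). By horse this mean of log2 levels changed by -0.10, 1.86, 0.20, 0.93, 1.33 and 2.25. It rose in horses 2, 4, 5 and 6 and changed little in horses 1 and 3. CD163, MERTK and VSIG4 are among the 14 markers and also on the list of glucocorticoid targets. The marker mean is therefore not separate from the rises, and the part of cell numbers in them was not tested.

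The other cell types had 0 or 1 called marker each, where 0.72% of all genes rose and 0.126% fell. In limma 2738 of all 16661 genes had an unadjusted p under 0.05. Lists this short hold too few genes for such counts to be set against those shares. Of 11 neutrophil markers 1 rose (TREM1), with a median of 0.27. Their mean changed by 1.16 and 2.06 in horses 1 and 3, by 0.06, 0.53 and 0.86 in horses 4, 5 and 6, and by -0.75 in horse 2. Horses 1 and 3 thus gained most in neutrophil markers and least in macrophage markers. Of 14 markers of NK or cytotoxic lymphocytes 1 fell (GZMB), with a median of -0.24 and a change of the mean of -1.01 in horse 4. T cell markers had 0 of 18 called by limma and a median of -0.07, and B or plasma cell markers had 0 of 11 called and a median of -0.28 (2 and 1 with an unadjusted p under 0.05). Markers of synovial fibroblasts (15 measured, median -0.20), chondrocytes (16, -0.13), endothelium (11, -0.15), dendritic cells (11, 0.23), red cells (6, -0.10), platelets (7, -0.00) and mast cells or other granulocytes (7, -0.05) had 0 called by limma, with 1, 2, 1, 3, 0, 0 and 1 at an unadjusted p under 0.05 in that order. The mean of the fibroblast markers changed by -0.97 in horse 1, whose baseline array was the highest at 5.27.

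Some genes of the lysosome rose. The list of autophagy and lysosome traffic had 1 of 39 members called (LAMP1) and a median change of 0.40. The brightest of 4 equal classes of genes, described below, had a median change of 0.41. Without the 24 h array of horse 2 these medians were 0.30 and 0.28, and 0 members of the list were called. Most of the genes in this paragraph belong to no list and were grouped after their calls were known. CTSB, the abundant cysteine protease cathepsin B, had levels of 7.45, 9.66 and 10.39 at 24 h, against 6.08, 6.38 and 8.02 at baseline. The groups met through the high baseline array of horse 4 and the low 24 h arrays of horses 3 and 1. CTSB rose by 2.54 ± 0.36 (SE, adjusted p = 0.0121), and LGMN, the asparaginyl protease legumain that processes cathepsins, by 2.18 ± 0.30 (adjusted p = 0.0107). LGMN had levels of 5.85, 8.38 and 8.69 at 24 h, against 4.17, 5.56 and 6.87 at baseline, which overlapped through horses 1 and 3 at 24 h and horses 4 and 6 at baseline, and its change lay between 1.52 and 2.90. These were the 2 called of 19 in the list of cathepsins and cystatins, whose median change was 0.39. CTSA (1.51), CTSZ (1.39), CTSC (1.61) and CTSS (1.07) did not pass, and CTSL lay at 0.01; these 5 were named after their values were seen. LAMP1, the main glycoprotein of the lysosome membrane, had levels of 8.31, 10.09 and 10.63 at 24 h, against 6.32, 7.21 and 8.68 at baseline and rose by 2.23 ± 0.40 (SE, adjusted p = 0.0274), with 0.25 in horse 1. PLD3, a lysosomal nuclease, rose by 2.32 ± 0.38 (SE) and CREG1, a small lysosomal glycoprotein, by 2.25 ± 0.48. GRN, the progranulin that lysosomal enzymes depend on, rose by 1.64 ± 0.34 and was the 1 called of 41 growth factors. SMPD1, the acid sphingomyelinase, rose by 1.26 ± 0.27, the peptidase DPP7 by 1.44 ± 0.30, the lipase-like PLBD2 by 1.52 ± 0.33 and the heparanase HPSE by 1.37 ± 0.25 (SE). GRN and PLBD2 were higher in 5 of 6 horses, and PLD3, CREG1, SMPD1, DPP7 and HPSE in 6 of 6. Of these lysosomal genes, CTSB and LGMN alone stayed called when the 24 h array of horse 2 was left out.

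The vacuolar proton pump, which acidifies the lysosome, had 4 of 19 subunits called, all higher, 6 at least 2-fold higher and a median change of 0.52. ATP6V0D1 had levels of 5.98, 7.54 and 8.49 at 24 h, against 4.97, 5.37 and 6.64 at baseline, with horse 1 the lowest at 24 h and horse 4 the highest at baseline, and rose by 1.90 ± 0.36 (SE, adjusted p = 0.0334). ATP6V0C, the ring subunit, rose by 1.79 ± 0.38, ATP6V1G1 by 1.62 ± 0.32 and ATP6V0B by 1.36 ± 0.29 (SE). With the 24 h array of horse 2 left out, the median of the pump was 0.36 with 0 subunits called (adjusted p from 0.0687 for ATP6V1G1 to 0.131 for ATP6V0B). FLCN and FNIP2, partners in the folliculin complex that reports amino acids at the lysosome, rose by 1.26 ± 0.27 and 1.39 ± 0.27 (SE, adjusted p = 0.0488 and 0.0339). With DDIT4 and PIK3R5, a regulatory subunit of PI3-kinase gamma (0.88 ± 0.19, SE), they were the 4 called of 43 genes of the PI3K, AKT and mTOR list, whose median was 0.55.

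Several signalling genes rose, and those among them that belong to no list were grouped after their calls were known. LYN, a Src family kinase that serves both activating and inhibitory receptors, had levels of 4.59, 6.44 and 7.56 at 24 h, against 3.33, 3.96 and 5.25 at baseline. The groups overlapped in horses 1 and 4, which changed by 0.96 and 0.51, and LYN rose by 2.24 ± 0.45 (SE, adjusted p = 0.0426). PTK2B, the calcium-sensing kinase PYK2 of adhesion, had levels of 6.34, 7.05 and 8.48 at 24 h, against 4.41, 5.03 and 5.56 at baseline without overlap. PTK2B rose by 2.19 ± 0.27 (SE, adjusted p = 0.0081) and kept its call in 29 of 33 settings. SLA, an adaptor that damps receptor signalling, rose by 2.23 ± 0.42 (SE), and the adaptor SAMSN1 by 1.94 ± 0.33. The Fc receptor and ITAM or ITIM list, which holds LYN and SIRPA, had 2 of 30 called and a median of 0.44. TRIB1, a pseudokinase that directs the degradation of C/EBP factors, had levels of 7.11, 8.27 and 10.13 at 24 h, against 4.54, 5.80 and 6.91 at baseline, without overlap, and rose by 2.69 ± 0.37 (SE, adjusted p = 0.00967). Of the MAP kinase list 2 of 40 rose, MAPKAPK2 (1.42 ± 0.31, SE) and MKNK1 (1.22 ± 0.26), kinases that act on mRNA stability and translation. IKBKB, the catalytic kinase that releases NF-kB, rose by 1.28 ± 0.24, MAP4K4 by 1.34 ± 0.23 and CDK9, the kinase that frees paused RNA polymerase, by 1.14 ± 0.23 (SE). RGS1, which shortens chemokine receptor signals, rose by 1.77 ± 0.34 (SE), with levels of 3.83, 5.35 and 6.80 at 24 h, against 3.02, 3.37 and 4.03 at baseline.

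Among transcription factors, ETS2, an effector of Ras and growth factor signals in macrophages, changed most. Its levels were 5.43, 7.74 and 8.91 at 24 h, against 4.12, 4.50 and 4.90 at baseline, with the 24 h array of horse 2 the lowest of its group and still above every baseline array. ETS2 rose 7.93-fold (log2 change 2.99 ± 0.40, SE, adjusted p = 0.00934), and by 3.27 without that array. KLF6, an immediate early factor of myeloid cells, rose by 0.97 ± 0.19 (SE, adjusted p = 0.0415), and these were the 2 called of 40 in the list of Kruppel-like, C/EBP, ETS, MAF and FOXO factors. NFE2L2, which encodes the antioxidant regulator NRF2, had levels of 5.73, 6.21 and 6.74 at 24 h, against 4.02, 4.69 and 6.34 at baseline. The only baseline array inside the 24 h range was that of horse 4, and NFE2L2 rose by 1.38 ± 0.28 (SE, adjusted p = 0.0431). Of basic helix-loop-helix and MiT factors 0 of 41 were called by limma, with DDIT3 at 1.31 (adjusted p = 0.0699) and MAX at 1.20 (0.0777) the nearest. An unadjusted p under 0.05 in limma was found for 12 of the 41, beside 2738 of all 16661 genes. Of 55 chromatin modifiers 1 rose, the deacetylase HDAC5 (1.02 ± 0.22, SE).

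Several called genes encode metabolic enzymes, grouped here after their calls were known. DPYD, which starts the breakdown of pyrimidines, had levels of 5.75, 7.59 and 8.66 at 24 h, against 4.15, 4.74 and 6.21 at baseline, with a single overlap at the high baseline array of horse 4. DPYD rose by 2.72 ± 0.31 (SE, adjusted p = 0.00537), between 1.59 and 3.91 over horses, and kept its call in 30 of 33 settings. It was the 1 called of 42 genes of nucleotide and one-carbon metabolism. PFKFB3, whose product drives glycolysis, had levels of 6.77, 7.50 and 9.31 at 24 h, against 5.20, 5.90 and 6.41 at baseline without overlap and rose by 1.86 ± 0.34 (SE, adjusted p = 0.0322), with 4.04 in horse 3 and 0.81 in horse 2. GYG1, the primer of glycogen, rose by 1.84 ± 0.40, POR, the reductase that feeds cytochrome P450 and haem oxygenase, by 1.70 ± 0.28, and ALDH1L1, a folate enzyme, by 1.51 ± 0.20 (SE). ALDH1L1 changed evenly, between 1.04 and 2.32, and kept its call in 28 of 33 settings. In lipid handling, ABCA1, the cholesterol exporter, rose by 1.75 ± 0.33, ACSL4, which activates arachidonic acid, by 1.86 ± 0.41, and PNPLA2, the triglyceride lipase, by 1.55 ± 0.29 (SE). In redox defence, CAT, the catalase, rose by 1.82 ± 0.35, TXNRD1, the thioredoxin reductase, by 1.42 ± 0.26, and TALDO1 of the pentose phosphate path by 1.33 ± 0.26 (SE). SOD2 (1.87, adjusted p = 0.095) and PGD (1.89, 0.0593) were higher in 6 of 6 horses and did not pass.

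Genes of protein synthesis and folding had high medians. Over all genes the median change was 0.01, and 0.72% were called higher. The brightest of 4 equal classes of genes, described below, had a median change of 0.41. The list of the unfolded protein response had a median change of 0.79 with 1 of 37 called, EDEM1, which helps to clear misfolded glycoproteins (1.25 ± 0.27, SE, adjusted p = 0.0473). By horse that median was -0.38, 1.10, 0.12, 0.51, 0.91 and 1.64 in horses 1 to 6, so horse 1 went against the rest. The list of tRNA synthetases and translation factors had a median of 0.68, and 2 of 44 rose, the alanyl-tRNA synthetase AARS1 (1.65 ± 0.31, SE) and the methionyl-tRNA synthetase MARS1 (1.22 ± 0.22). After quantile normalization the medians of these lists were 0.64 and 0.46, in that order, beside 0.20 for the brightest class. Without the 24 h array of horse 2 neither list had a called member. AARS1 showed no overlap between the times, although it changed by 0.13 in horse 3 beside 2.72 in horse 4. GTPBP2, a ribosome rescue factor, rose by 1.22 ± 0.20 (SE) with little difference among horses. SLC3A2, the shared chain of the amino acid exchangers, had levels of 6.50, 7.38 and 8.05 at 24 h, against 3.97, 5.58 and 6.38 at baseline without overlap, rose by 1.97 ± 0.34 (SE, adjusted p = 0.0259) and was the 1 called of 44 in the amino acid and ATF4 list. Of 51 splicing factors limma called 0, at a median of 0.37. An unadjusted p under 0.05 in limma was found for 9 of them, beside 2738 of all 16661 genes.

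**Figure D4:**
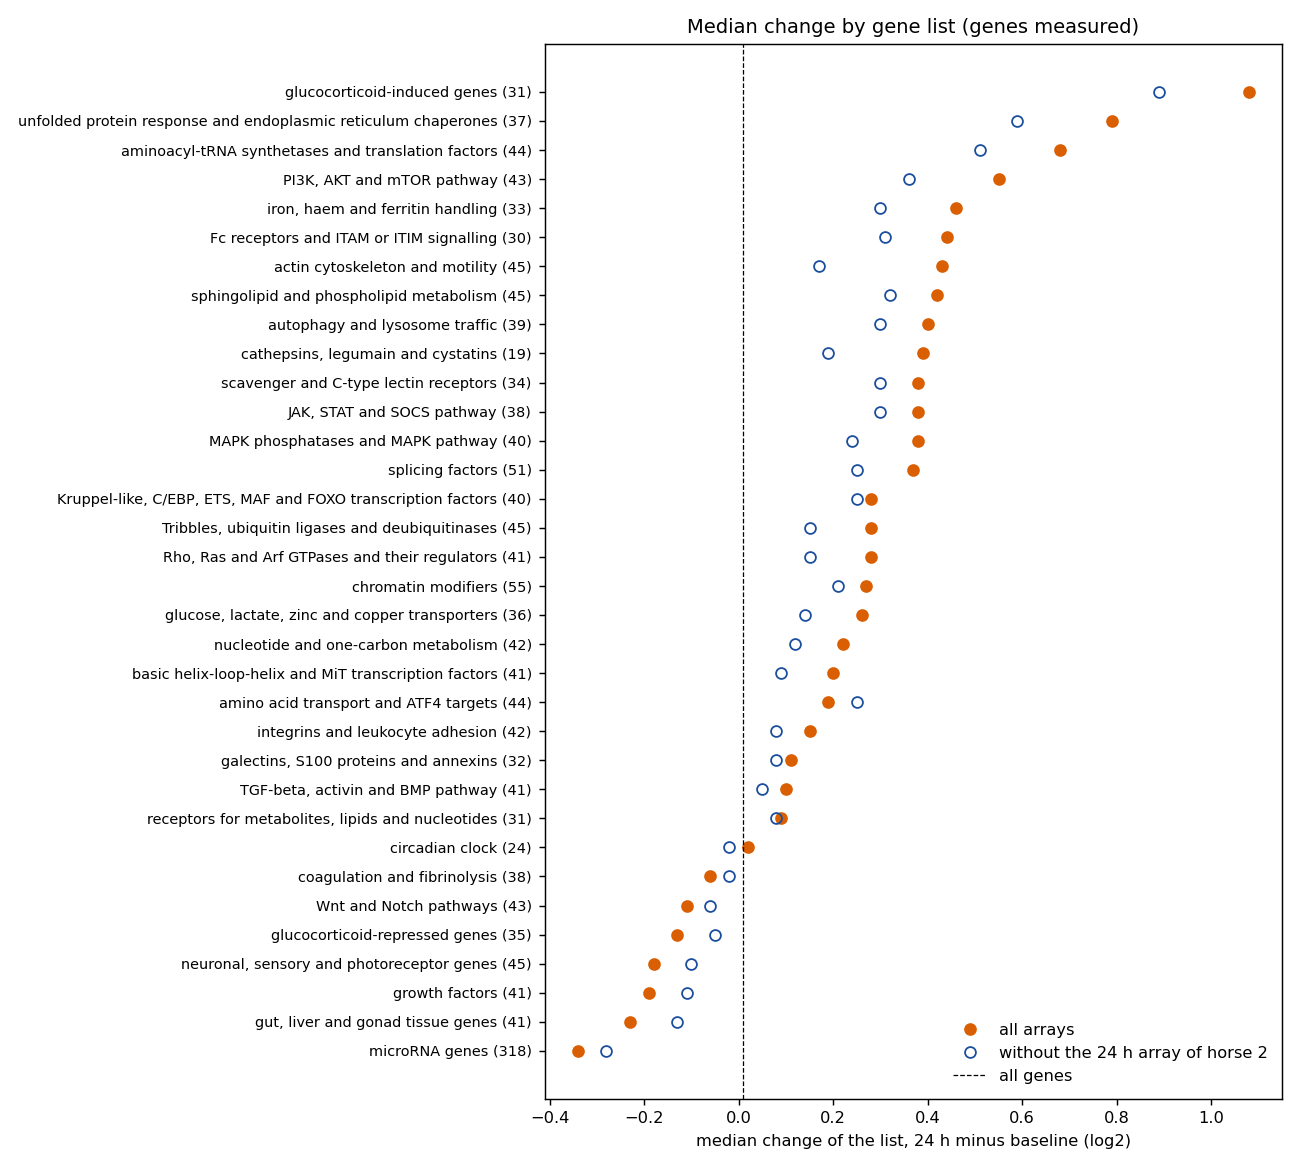
Median log2 change, 24 h minus baseline, of each gene list, with the number of genes measured in brackets; filled points use all arrays, open points leave out the 24 h array of horse 2 and the dashed line is the median of all genes, 0.01. Among the lists plotted, glucocorticoid-induced genes lie highest at 1.08 and microRNA genes lowest at -0.34, and leaving out that array brings most medians nearer to 0.

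Among secreted proteins, MMP1, the collagenase that cuts fibrillar collagen, had levels of 4.20, 8.70 and 10.58 at 24 h, against 3.42, 4.37 and 5.15 at baseline. Horse 2 was the exception, at 4.20 at 24 h and 4.12 at baseline, and the other 24 h arrays lay above all baseline arrays. MMP1 rose 15.4-fold (log2 change 3.94 ± 0.71, SE, adjusted p = 0.0307), and by 4.79 with horse 2 left out at 24 h (adjusted p = 0.00947). LGALS3, galectin-3 of macrophages, had levels of 4.62, 7.39 and 7.89 at 24 h, against 3.36, 4.12 and 4.64 at baseline, with the low end of the 24 h group in horse 3, and rose by 2.69 ± 0.32 (SE, adjusted p = 0.00678). CXCL8, the neutrophil chemokine interleukin 8, had levels of 4.48, 5.63 and 6.90 at 24 h, against 3.91, 3.99 and 4.74 at baseline and rose by 1.51 ± 0.31 (SE, adjusted p = 0.0431), with 0.57 in horse 2. VCAN, the proteoglycan versican made by monocytes, rose by 1.94 ± 0.39 (SE, adjusted p = 0.0397), and its other probe set gave 1.41 (adjusted p = 0.104). MMP1 and CXCL8 are the 2 called members, both higher, of a list of 35 genes that glucocorticoids are known to repress. The median of that list was -0.13, and 0 members fell. IL6 (-0.36), PTGS2 (-0.30), NOS2 (-0.36) and CXCL10 (-0.09) did not pass. Their mean levels were low at both times, at 2.73, 3.75, 3.44 and 3.38 at 24 h and 3.09, 4.05, 3.80 and 3.47 at baseline. These 4 genes were named after their values were seen.

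The rest of the called genes included several of vesicle traffic and the cytoskeleton. SDCBP, the exosome adaptor syntenin, rose by 2.38 ± 0.49 (SE), RAB31 by 1.81 ± 0.40, RAB1A by 1.69 ± 0.32 and SMAP2 by 1.71 ± 0.31. SDCBP and RAB31 were higher in 5 of 6 horses and changed by -0.37 and -0.56 in horse 1. Of 68 genes whose symbol starts with RAB and a digit 2 rose and 1 fell, RAB42 (log2 change -1.20, SE 0.25), and the median was 0.16. SSH2, a phosphatase that activates the actin cutter cofilin, rose by 2.15 ± 0.35 (SE) and belongs to no list. Of the 45 genes in the actin and motility list limma called 0, near the 0.72% of all genes that rose. In limma 8 of the 45 had an unadjusted p under 0.05, beside 2738 of all 16661 genes. The median change of that list was 0.43. The rhomboid-like RHBDD2 had levels of 7.11, 9.34 and 9.72 at 24 h, against 5.38, 6.28 and 7.52 at baseline, with 1 baseline array, that of horse 4, inside the 24 h range, and rose by 2.49 ± 0.36 (SE, adjusted p = 0.0123). GRINA, a calcium-regulating membrane protein, rose by 1.93 ± 0.25 (SE) without overlap, and FNDC3B by 1.89 ± 0.30.

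Among genes with 1 symbol the falls were fewer, smaller and mostly at low levels. GZMB, the granzyme of cytotoxic lymphocytes, was the 1 called fall with all arrays above 5, at 5.21, 5.58 and 5.94 at 24 h, against 6.49, 6.70 and 7.39 at baseline. No arrays overlapped, and GZMB fell by 1.26 (log2, SE 0.26, adjusted p = 0.0431), but 2 other probe sets of the gene gave -0.70 (adjusted p = 0.286) and -0.77 (adjusted p = 0.153). MicroRNA genes had 8 of 318 called, all lower, beside 0.126% of all genes called lower. Their median change was -0.34, which was -0.15 after quantile normalization. Their median level was low, at 2.73 at 24 h and 3.11 at baseline. The dimmest class of genes, described below, held 14 of the 21 falls at a median change of -0.20, or -0.02 after quantile normalization. MIR187 had levels of 3.35, 4.08 and 4.53 at 24 h, against 4.65, 5.48 and 6.16 at baseline and fell by 1.40 (SE 0.31, adjusted p = 0.0488), with -2.81 in horse 2 and -0.34 in horse 4. The other 7, MIR369, MIR424, MIR124-2, MIR24-2, MIR219-2, MIR1-2 and MIR323, fell by 0.86 to 1.20 and had median levels of 1.81 to 3.17 at 24 h and 2.73 to 4.29 at baseline. LOC100050557, a locus with no described role here, fell by 1.26 (SE 0.21, adjusted p = 0.0236) with levels of 1.82, 2.29 and 3.39 at 24 h, against 3.14, 3.79 and 4.21 at baseline. RD3, a photoreceptor gene, fell by 1.02 (SE 0.19, adjusted p = 0.0331) with levels of 4.06, 4.43 and 4.68 at 24 h, against 4.93, 5.46 and 5.95 at baseline and no overlap. SOX8 (-1.29), CDX2 (-1.08) and HOXA9 (-0.89), developmental transcription factors, and PDE4C (-1.01), a phosphodiesterase of cyclic AMP, also fell. Sensory and neuronal genes had 2 of 45 lower (RD3 and GNG3) and a median of -0.18, and genes of gut, liver and gonad had 1 of 41 lower (CDX2) and a median of -0.23.

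The direction of change went with the level. With the genes in 4 equal classes by mean level, the dimmest class held 0 rises and 14 falls, the next 0 and 1, the third 7 and 5 and the brightest 113 and 1. This mean takes in arrays after the injection, so a rise itself moves a gene towards a brighter class and a fall towards a dimmer one. CD163 had a baseline mean of 3.64, under the upper bound of 4.21 of the second class, which held 0 rises. The link between direction and class is therefore partly built in. The median change in those classes was -0.20, -0.06, 0.09 and 0.41, and after quantile normalization, which gives all arrays 1 distribution, -0.02, 0.01, 0.05 and 0.20. The wider spread of values at 24 h, given above, moves with this pattern, and its part in the calls was not tested beyond the covariate fit. Quantile normalization left 52 rises and 7 falls among the genes. Of all called probe sets, unnamed ones included, 65.4% were higher after quantile normalization, 64.6% after median centring and 53.5% as deposited. Several list medians lay near the 0.41 of the brightest class. These were scavenger and lectin receptors (0.38), cathepsins (0.39), the Fc receptor list (0.44) and the JAK, STAT and SOCS list (0.38).

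Horses differed in the size of the response. The genes at least 2-fold higher at 24 h numbered 950, 3122, 1191, 1074, 1536 and 3071 in horses 1 to 6, and those at least 2-fold lower 1268, 1332, 825, 783, 739 and 1624. The median change of the 120 genes that rose was 0.92, 1.63, 1.39, 1.31, 1.61 and 2.37 in the same order. All 6 horses agreed in sign for 109 of the 120 rises and 18 of the 21 falls. Among the called genes whose change differed least over horses were WDFY4, which serves antigen presentation in dendritic cells (1.09 to 1.73), GTPBP2 (0.76 to 1.61), MARS1 (0.73 to 1.46) and PIK3R5 (0.51 to 1.21). Among the falls the evenest included HOXA9 (-1.18 to -0.64) and RD3 (-1.41 to -0.57).

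Each horse stood outside the other 5 in part of the response. In 4051 genes with a mean level of at least 5, the change of 1 horse lay above all others by over 1 in 15, 159, 56, 46, 10 and 245 genes for horses 1 to 6. It lay below all others by over 1 in 333, 27, 80, 191, 13 and 8 genes. Horses 1, 4 and 6 thus had more such genes than horse 2, whose genes are described because its 24 h array stood apart. SPP1, the osteopontin of macrophages, changed by 5.48 in horse 2 and by -1.44 to 1.52 in the others, and reached 10.87 on the 24 h array of horse 2. CCR2, the chemokine receptor of classical monocytes, changed by 5.21 in horse 2 and by -1.36 to 1.62 in the others. ACTA2, the smooth muscle actin, changed by 3.99, and MKI67, a marker of dividing cells, by 1.92, where the other horses gave -1.26 to -0.20. None of these 4 genes was called. Leaving out the 24 h array of horse 2 brought in 6 genes that were otherwise below the threshold, all higher. IL1R2, the decoy receptor that binds interleukin 1, changed by 1.91 with all arrays (adjusted p = 0.115) and rose by 2.69 without that one (adjusted p = 0.0215). Horse 2 changed by -2.03 and the others by 1.26 to 3.95. MMP8, the neutrophil collagenase, rose by 3.30 without it (adjusted p = 0.0478), and IRS2, an insulin receptor substrate and glucocorticoid target, by 2.63 (adjusted p = 0.0485). GADD45A, a growth arrest gene, rose by 1.94, S100P, a calcium-binding protein, by 1.88 and LOC100071026 by 3.42.

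**Figure D5:**
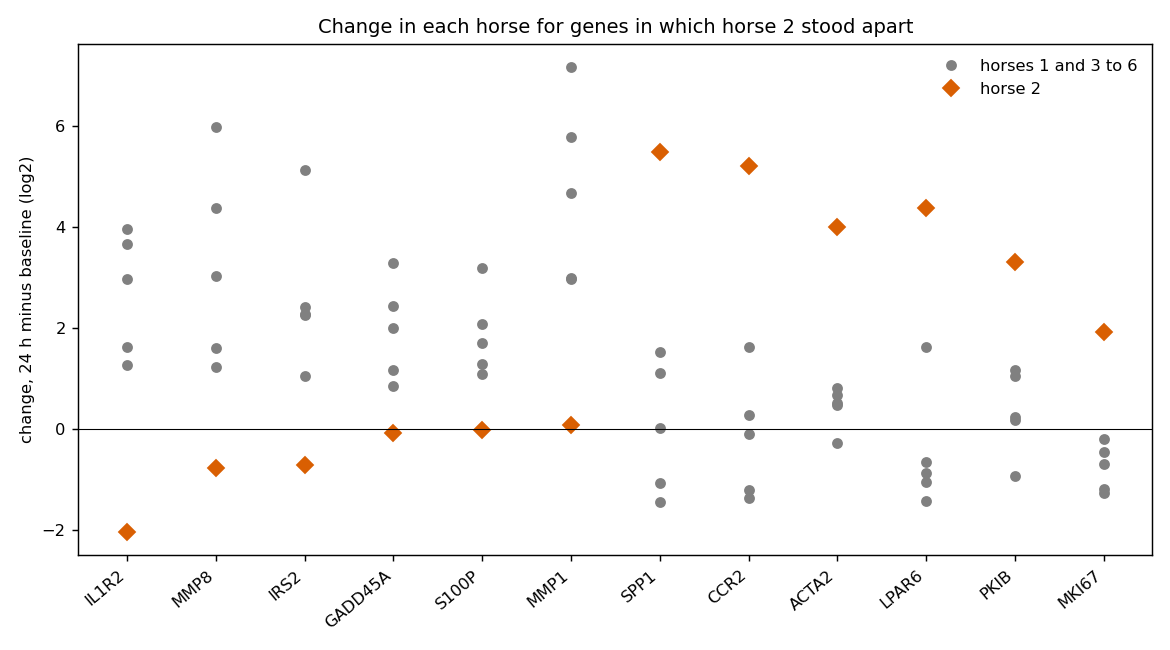
Log2 change, 24 h minus baseline, of 12 genes in horse 2 (orange) and in the other 5 horses (grey). Horse 2 lies below the others for IL1R2 at -2.03 and for MMP1 at 0.08, and above them for SPP1 at 5.48 and CCR2 at 5.21.

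Some genes moved the same way in every horse without passing. The largest such rises included SLC31A1, the copper importer (2.28 ± 0.51, SE, adjusted p = 0.0505), CGA, the shared hormone alpha chain (2.12 ± 0.58, 0.0787), ABCA6 (2.12 ± 0.60, 0.0894), EIF1, a factor of start codon choice (1.87 ± 0.44, 0.0564) and ICOSLG, a T cell costimulator (1.66 ± 0.37, 0.0522). EIF1 had no overlap between the times, at 8.26, 8.70 and 9.57 at 24 h, against 5.82, 7.04 and 8.05 at baseline. The largest such falls included IL3RA, the interleukin 3 receptor (-1.11, adjusted p = 0.0544), HOXA5 (-1.02, 0.0625), IGFBP5 (-1.03, 0.109) and EFEMP2, a matrix protein of elastic fibres (-1.05, 0.115). IGFBP5 and EFEMP2 changed by -3.10 and -3.30 in horse 1, whose baseline levels of 6.34 and 8.40 were the highest of that group, and by -1.15 to -0.08 and -1.08 to -0.13 in the others.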

How the data were processed

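Total RNA of synovial fluid was hybridised to an Affymetrix equine array. What the authors deposited is 1 log2 value for each probe set and array. The submitters' processing notes name RMA, Expression Console and, from the same maker, Transcriptome Analysis Console 3.0 without saying what each was used for. Symbols came from the platform annotation, in which 16789 probe sets carry a single symbol; the 343 with more than 1 and the 13427 lacking any were tested but not named. The day 7 columns of horses 1 and 2, identical at 99.3% of probe sets, were averaged and counted as 1 array, so the fit held 17 arrays.

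The change between times came from a two-sided limma 3.58.1 fit (R 4.3.3, moderated by eBayes from 9 residual and 4.71 prior degrees of freedom) that held each horse as a fixed block, since the labels name the same horses at both times. P-values were adjusted by Benjamini-Hochberg over 30559 probe sets. Precision is limited by the number of arrays. Summaries used pandas 2.3.3 and matplotlib 3.10.9 in Python 3.11.15.

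Genes named are the 40 largest rises and 20 largest falls among called genes of 1 sign in all horses, the called members of each list (up to 4) or the 2 nearest, and the 12 largest uncalled changes per direction. To these come the 12 genes where horse 2 stood farthest apart, called genes with the evenest change (6 per direction), genes called only without the 24 h array of horse 2, called microRNA genes and called rises of lowest and highest baseline. The other called genes were added, and the text names part of all these. The members and lists were chosen with earlier results of these data known. Lists were described by counts and medians, not tested.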

Additional observations from a re-analysis of the deposited data

Results flagged for a closer look

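Among 47 genes whose levels were examined array by array, 3 had a baseline array far from the other 5 of its group, and each time it was that of horse 4. The DPYD level there was 6.21, where the other baseline arrays lay between 4.15 and 4.78. The CTSB level was 8.02, against 6.08 to 6.71 on the others. The NFE2L2 level was 6.34, against 4.02 to 4.84. The gap to the next array took 0.694, 0.675 and 0.647 of the range of the group for DPYD, CTSB and NFE2L2, above Dixon's critical value for 6 samples. Chance flags about 1 in 20 groups, and 94 groups were examined.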

How the results depend on the processing

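The change of none of the 141 called genes reversed in the 33 settings, 2 of them chosen after seeing the data, but the counts moved in most. As deposited, 310 probe sets, 120 rises and 21 falls were called. The counts were 2, 1 and 0 on the 12 arrays of 24 h and baseline alone (5020 probe sets with an unadjusted p under 0.05), and 1, 1 and 0 on those arrays without the 24 h array of horse 2 or with the array SD as a covariate. They were 107, 52 and 7 after quantile normalization, 164, 71 and 9 after median centring, 758, 202 and 97 with the horse as a random effect and 488, 165 and 42 with both day 7 columns kept. Without the replicate block, that is without pairing by horse, they were 437, 125 and 49. A mean level of at least 4 gave 168, 108 and 5, one of at least 5 gave 231, 151 and 1, and array weights gave 210, 97 and 6. An unadjusted p under 0.05 with a 2-fold change gave 1587, 591 and 44, and adjustment over probe sets with 1 symbol gave 222, 182 and 39. Without the 24 h array of horse 2 and the baseline array of horse 4 they were 47, 27 and 1. Leaving out 1 horse or 1 array at a time gave 5 to 1257 probe sets, 3 to 489 rises and 0 to 99 falls. Without horse 5 there were 5 probe sets, without horse 6 there were 10, without the 24 h array of horse 6 there were 17, and without the baseline array of horse 1 there were 1257. A variance trend with robust estimation gave 329, 83 and 31. Of the 141 called genes 31 kept their call in at least 20 settings, 28 in fewer than 10, and the median was 13. The planned description of promoter motifs was not run, since no sequences were used here.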

Other observations

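Families picked by the start of their symbol, after the values were seen, add to the lists above. Over all genes 0.72% rose and 0.126% fell. HOX genes had 1 of 31 lower (HOXA9) and a median change of -0.40, which was -0.27 after quantile normalization. Olfactory receptor genes, which are not known for a role in joint fluid, had a median of 0.00 over 668 genes, with 0 called by limma as deposited. By horse that median was 0.24, 0.00, 0.44, 0.10, -0.25 and -0.34 in horses 1 to 6. Solute carriers had 2 of 340 higher (SLC3A2 and SLC15A4) and a median of 0.02, both near the values over all genes.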
